A study of Homo sapiens with 6 samples.

Results

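ATF3, ATF4, ATF5, DDIT3, TRIB3, CHAC1, CEBPB, CEBPG, PPP1R15A and NUPR1 are the transcription factors, inhibitors and effector enzymes of the stress pathway that runs through ATF4 and CHOP, the protein of DDIT3. They were taken by symbol from the name column of the expression table, where each of the 10 had a single row among 27238. The cells were QBC-939, labelled as a human cholangiocarcinoma (bile duct cancer) line and grown in medium with fetal bovine serum. In the control group they received a scrambled shRNA, which targets no intended mRNA, and in the other group an shRNA against Bmi1, each for 48 h, with 3 libraries per group. The labels name the control reagent as shRNA in one place and as siRNA in another, so whether both groups carried the same kind of RNA is not settled. No untreated cells were analysed here, and how many hairpin sequences were used is not given here. The design text describes the repeats as separate transfections, so the spread between libraries is that between transfected cultures of a single line. The unit is FPKM, which scales fragments by transcript length and by the mapped fragments of a library. It allows a rough comparison of levels between genes and between libraries. That scaling does not make libraries fully comparable, since FPKM totals differed between the groups, as given below. All 10 genes passed the filter of a mean of at least 1 FPKM over the 6 libraries, which 11016 rows passed.

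The eIF2 kinases, each sensing a different stress, phosphorylate the translation initiation factor that names them, eIF2, which slows protein synthesis in general while the ATF4 mRNA, held back by short upstream reading frames, is translated more. ATF4 then pairs with C/EBP proteins such as CEBPB and CEBPG on composite sites and raises genes for amino acid supply and tRNA charging as well as DDIT3, ATF3, TRIB3, CHAC1 and PPP1R15A, the last of which brings a phosphatase to eIF2 and closes the loop. In carcinoma cells the pathway is known both for supporting growth when nutrients are short and, through CHOP, for cell death. ATF4, ATF5 and CHOP are controlled in good part at translation and protein turnover, which mRNA values do not show.

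The targeted gene checked the labels: BMI1 stood at 6.65, 5.34 and 6.09 FPKM in the control libraries and at 1.49, 1.19 and 2.65 FPKM in the Bmi1 shRNA libraries (log2 fold change -1.37, limma, adjusted p = 0.00162). All 9 bile duct epithelium markers had values, with KRT18 at 839.7 ± 16.2 and EPCAM at 164 ± 2.55 FPKM in control libraries (SD, n = 3 each), although KRT7, a defining marker, was at only 2.74 ± 0.0356 FPKM. The summed level of that list was 1818 to 1978 FPKM in control and 1564 to 1800 FPKM in Bmi1 shRNA libraries. Of other cell types, the 4 fibroblast and 4 endothelial markers with a row summed to at most 1.51 and 0.119 FPKM in any library, and the intestinal list summed to 20.6 to 22.3 against 18.4 to 21.3 FPKM, nearly all of it VIL1. The summed level of the hepatocyte list differed between the groups, at 158 to 168 FPKM in control and 229 to 241 FPKM in Bmi1 shRNA libraries. SERPINA1 and TTR made up nearly all of that sum, whereas APOA2, CYP3A4 and TF were at or near 0 in every library. The list did not move as a whole: of its 3 tested genes 2 were called higher and 1 lower, HNF4A (log2 fold change -0.47). Over all tested rows 28.6% were called higher and 28.5% lower. The white blood cell list summed to 1428 to 1530 against 1518 to 1579 FPKM, nearly all of it LYZ, with NKG7 at or near 0. The sums over all rows were 332910 to 341268 FPKM in control and 352800 to 360371 FPKM in Bmi1 shRNA libraries. The 13 mitochondrially encoded mRNAs summed to 53272 to 54565 FPKM in control and 51317 to 52055 FPKM in Bmi1 shRNA libraries, without overlap. The part of these differences in the results below was not tested.

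Sequence before the start sites is described here because ATF4 acts through a composite site, the C/EBP-ATF response element with the letters TGATGNAA. RefSeq start-site windows (GRCh38.p14) matched 9 of the 10 genes, with 18 windows in all. On either strand of the 250 bases before a start, TGATGNAA was present for ATF3, CHAC1 and CEBPG, in 3 of 18 windows, against 3.14% of all 35116 windows. PPP1R15A held no such match but a full cyclic AMP response element, TGACGTCA, which ATF and CREB proteins bind and which 1.65% of all windows held. These matches are shown because they are the letters that ATF factors are known to read, and they were chosen with the outcome known. Of the 4 genes, CHAC1 and PPP1R15A fell with Bmi1 shRNA, while ATF3 and CEBPG were not called. TRIB3 and CEBPB fell without such a match, and a link between match and fall was not tested. Capitals mark the matched letters, and each stretch is the forward strand, 5′ to 3′, with 10 bases to each side.
ATF3, chr1:212565206-212565233: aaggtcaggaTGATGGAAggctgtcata
CHAC1, chr15:40953252-40953279: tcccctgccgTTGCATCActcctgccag
CEBPG, chr19:33374061-33374088: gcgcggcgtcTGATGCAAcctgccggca
PPP1R15A, chr19:48872353-48872380: cctctcttcgTGACGTCAgcacgccggg
The ATF3 match lay 191 to 184 bases before the first of 2 listed starts, and that of CEBPG 42 to 35 bases before the second of its 2. The CHAC1 match read on the reverse strand, 209 to 202 bases before the RefSeq start, and fell within an exon of the gene as GENCODE draws it. The PPP1R15A match lay 58 to 51 bases before its start. The C/EBP letters TTNNGNAA occurred for ATF3, ATF5 and PPP1R15A, 3 of 9 genes against 38.1% of the 27305 genes with RefSeq windows, and none of these matches overlapped the composite element or the cyclic AMP element. The endoplasmic reticulum stress element, CCAAT and CCACG with 9 bases between, was in none of the 18 windows and in 0.074% of all. ATF4, CEBPB, DDIT3 and TRIB3 held none of these letters in their windows. A match is a string of letters and was not tested as a binding site.

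Of the 10 genes, 4 fell with Bmi1 shRNA (PPP1R15A, CHAC1, TRIB3 and CEBPB), 1 rose (NUPR1) and 5 were not called (ATF4, CEBPG, ATF5, DDIT3 and ATF3), by limma at an adjusted p under 0.05. Over all tested rows 28.5% were called lower and 28.6% higher. With only 10 genes, the lower count stood above its background share and the higher count below it, and neither difference was tested. The groups of libraries did not overlap for 5 of the 10 genes, against 65.4% of all tested rows. The median log2 fold change of the 10 was -0.04, and that of all tested rows was -0.02. Single libraries moved these counts: without control replicate 3 the calls were 2 higher and 5 lower, and without Bmi1 shRNA replicate 3 they were 2 higher and 4 lower. Since RNA came from whole cultures, fewer cells expressing a gene and less RNA of it per cell cannot be told apart.

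**Figure D1:**
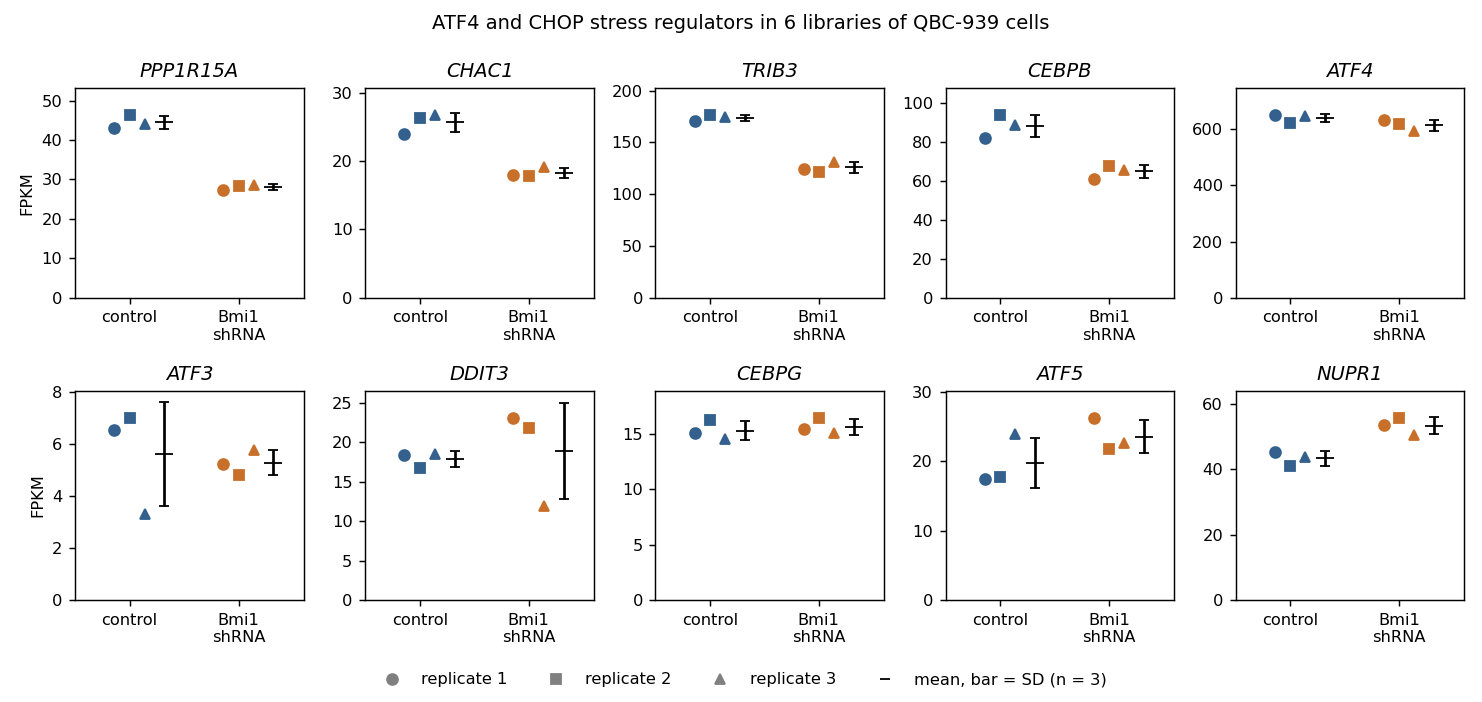
Level of each regulator in FPKM (vertical axes, each from 0) in the 3 control and 3 Bmi1 shRNA libraries, with the mean and SD of each group (n = 3) beside the points. The groups are separate for PPP1R15A, CHAC1, TRIB3, CEBPB and NUPR1, and a single library stands away from its group for ATF3, DDIT3 and ATF5.

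PPP1R15A, also called GADD34, is the stress-induced subunit that directs protein phosphatase 1 to eIF2. It measured 43.2, 46.2 and 44.0 FPKM in control libraries and 27.3, 28.3 and 28.7 FPKM in Bmi1 shRNA libraries. Every Bmi1 shRNA library lay well below every control library, and the 3 libraries of each group lay close together. The mean fell from 44.5 ± 1.59 to 28.1 ± 0.695 FPKM (SD, n = 3 each; 1.58-fold lower), with a log2 fold change of -0.64 (SE 0.052; limma, adjusted p = 0.000348). This was the largest change among the 10 genes in either direction, and 4.53% of all tested rows had a log2 fold change as low or lower. PPP1R15B, the constitutive subunit of the same phosphatase, fell as well, from 6.96 ± 0.270 to 5.46 ± 0.314 FPKM (limma, adjusted p = 0.00707). The FPKM ratio of the stress-induced to the constitutive subunit was 6.39 ± 0.102 in control and 5.16 ± 0.315 in Bmi1 shRNA libraries (SD, n = 3 each), without overlap. Of the phosphatase 1 catalytic subunits that such regulators bind, PPP1CB rose from 5.90 ± 0.934 to 14.6 ± 0.803 FPKM, while PPP1CA and PPP1CC were not called.

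TRIB3 encodes a pseudokinase that ATF4 and CHOP raise and that in turn binds and restrains ATF4. Its control libraries measured 170.3, 176 and 174 FPKM and its Bmi1 shRNA libraries 124, 122 and 131 FPKM. The groups were separate by a margin several times their spread. The mean fell from 174 ± 2.98 to 126 ± 5.03 FPKM (SD, n = 3 each; 1.38-fold lower; log2 fold change -0.46, SE 0.049; limma, adjusted p = 0.000667). Its relative TRIB1, another tribbles pseudokinase, fell from 18.9 ± 0.689 to 14.0 ± 1.05 FPKM (limma, adjusted p = 0.00339). TRIB1 was not called with the GC trend removed (-0.13, limma, adjusted p = 0.147). When medians over a gene's transcripts stood for GC content and length, it was called lower (-0.28, limma, adjusted p = 0.0180). The ratio of TRIB3 to TRIB1 was 9.19 ± 0.290 and 8.98 ± 0.626 (SD, n = 3 each), with overlapping libraries. TRIB2 stayed under the filter, at 0.266 to 0.490 FPKM.

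CHAC1 encodes an enzyme that degrades glutathione and is a late product of the ATF4 to CHOP cascade. It measured 24.1, 26.3 and 26.7 FPKM in control and 18.0, 17.8 and 19.1 FPKM in Bmi1 shRNA libraries. No Bmi1 shRNA library reached the lowest control library. The mean fell from 25.7 ± 1.43 to 18.3 ± 0.727 FPKM (SD, n = 3 each; 1.41-fold lower; log2 fold change -0.47, SE 0.063; limma, adjusted p = 0.00142). CHAC2, the constitutive enzyme of the same reaction, did not fall with it. It stood at 4.58 ± 0.852 and 5.74 ± 0.856 FPKM (SD, n = 3 each, log2 fold change 0.27, limma, adjusted p = 0.129). Once the trend with GC content was removed, the direction reversed to -0.60 and was called (limma, adjusted p = 0.00585). When medians over a gene's transcripts stood for GC content and length, CHAC2 was at -0.31 and not called (limma, adjusted p = 0.0749).

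CEBPB is the C/EBP family member that dimerises with ATF4 and CHOP. Its control libraries measured 82.3, 93.7 and 88.8 FPKM and its Bmi1 shRNA libraries 61.2, 67.9 and 65.6 FPKM. The libraries spread more than those of TRIB3 but did not overlap. The mean fell from 88.3 ± 5.74 to 64.9 ± 3.39 FPKM (SD, n = 3 each; 1.36-fold lower; log2 fold change -0.44, SE 0.069; limma, adjusted p = 0.00247). Other C/EBP genes did not share this direction: CEBPD, an acute-phase regulator, rose from 8.47 ± 0.308 to 11.9 ± 1.01 FPKM (limma, adjusted p = 0.00307), and CEBPA, a differentiation factor, rose from 7.19 ± 0.611 to 8.78 ± 0.579 FPKM (adjusted p = 0.0311). CEBPA lost its call when single libraries were left out, with adjusted p from 0.0233 to 0.0979. The ratio of CEBPB to CEBPG was 5.78 ± 0.321 in control and 4.15 ± 0.191 in Bmi1 shRNA libraries (SD, n = 3 each), without overlap. The antisense gene CEBPB-AS1 overlaps CEBPB and was under the filter, at 0.625 ± 0.239 and 0.341 ± 0.148 FPKM; use of strand in the counting is not stated.

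NUPR1, a small stress-induced chromatin protein, was the only member called higher. Its control libraries measured 45.4, 41.1 and 43.7 FPKM and its Bmi1 shRNA libraries 53.6, 55.7 and 50.6 FPKM. All 3 Bmi1 shRNA libraries exceeded all 3 control libraries. The mean rose from 43.4 ± 2.19 to 53.3 ± 2.57 FPKM (SD, n = 3 each), 1.23 times the control mean, with a log2 fold change of 0.29 (SE 0.062; limma, adjusted p = 0.00786). A log2 fold change this large or larger was found for 27.3% of all tested rows, so the rise was modest beside the rest of the table.

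ATF4, the pathway's central transcription factor, had the highest level of the 10, at place 72 among the 11016 tested rows by mean FPKM. Its control libraries measured 649, 623 and 647 FPKM and its Bmi1 shRNA libraries 631, 617 and 593 FPKM. The groups overlapped, with the first Bmi1 shRNA library above the second control library. The means were 639.9 ± 14.5 and 614 ± 19.4 FPKM (SD, n = 3 each), and the log2 fold change was -0.06 with a 95% interval from -0.17 to 0.05 (limma, adjusted p = 0.281). This interval does not reach the -0.46 of TRIB3 or the -0.64 of PPP1R15A. The call depended on scaling: ATF4 was called lower when libraries were scaled to a common FPKM total (-0.15, adjusted p = 0.0152) and with quantile normalization (-0.34, adjusted p = 0.000682). Relative to ATF4 in the same library, PPP1R15A stood at 0.0695 ± 0.00409 in control and 0.0458 ± 0.00254 in Bmi1 shRNA libraries (ratios of FPKM; SD, n = 3 each). The same ratio was 0.271 ± 0.0102 and 0.205 ± 0.0141 for TRIB3, and 0.0402 ± 0.00274 and 0.0298 ± 0.00210 for CHAC1. In these 3 ratios, all of genes called lower, the groups were separate. The ratio of DDIT3 to ATF4 was 0.0279 ± 0.000946 in control and 0.0307 ± 0.00909 in Bmi1 shRNA libraries (SD, n = 3 each), with overlapping groups. The processed copy ATF4P3, whose reads could be shared with ATF4, was at 2.32 ± 0.217 and 3.89 ± 0.851 FPKM, small beside ATF4 itself.

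CEBPG, a short C/EBP partner of ATF4 without an activation domain, measured 15.0, 16.2 and 14.5 FPKM in control and 15.4, 16.4 and 15.1 FPKM in Bmi1 shRNA libraries. The groups lay over each other, each within about 2 FPKM. The log2 fold change was 0.03 with a 95% interval from -0.12 to 0.19 (limma, adjusted p = 0.677), which bounds a change in either direction more closely than for the 3 genes that follow.

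DDIT3 encodes CHOP, the death-promoting C/EBP relative induced by ATF4. Its control libraries measured 18.3, 16.7 and 18.6 FPKM and its Bmi1 shRNA libraries 23.1, 21.8 and 12.0 FPKM. Bmi1 shRNA replicates 1 and 2 lay above every control library and replicate 3 below every control library, so the group mean of 18.9 ± 6.06 FPKM describes none of its libraries. The log2 fold change was 0.03 with a wide 95% interval, -0.53 to 0.58 (limma, adjusted p = 0.924). Without Bmi1 shRNA replicate 3 it was 0.31 and called higher (adjusted p = 0.0143), and without replicate 1 it was -0.13. In the annotation DDIT3 (chromosome 12, 57516588 to 57521737, reverse strand, GRCh38) overlaps MARS, a tRNA synthetase gene read from the other strand, which fell from 41.0 ± 3.06 to 24.8 ± 1.96 FPKM. Its other end overlaps MBD6, at 9.22 ± 1.99 and 7.76 ± 0.625 FPKM. If counting ignored strand, reads of the shared ends cannot be told apart.

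ATF3, a stress-induced repressor and activator downstream of ATF4, was the least abundant member, at place 5364 among tested rows. It measured 6.53, 6.99 and 3.33 FPKM in control and 5.24, 4.80 and 5.77 FPKM in Bmi1 shRNA libraries. The Bmi1 shRNA libraries all fell inside the control range, which control replicate 3 stretched downward. The log2 fold change was -0.03 with a 95% interval from -0.59 to 0.53 (limma, adjusted p = 0.922). Without control replicate 3 it was -0.31 and called lower (adjusted p = 0.0375).

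ATF5, an ATF4 relative that is translated under the same upstream control and serves the mitochondrial stress response, measured 17.5, 17.8 and 23.9 FPKM in control and 26.2, 21.8 and 22.6 FPKM in Bmi1 shRNA libraries. Control replicate 3 exceeded Bmi1 shRNA replicates 2 and 3, while the other two control libraries lay below the Bmi1 shRNA group. The log2 fold change was 0.25 with a 95% interval from -0.07 to 0.58 (limma, adjusted p = 0.148), and without control replicate 3 it was 0.39 and called higher (adjusted p = 0.0210). The start of ATF5 overlaps NUP62, a nuclear pore gene on the other strand, which fell from 15.0 ± 2.59 to 7.28 ± 1.47 FPKM.

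The departures of ATF3, ATF5 and DDIT3 were not shared by the other members. Control replicate 3 was 0.56 below its group mean for ATF3 and 0.28 above it for ATF5 on the log2(FPKM + 1) scale, and within 0.06 for ATF4, TRIB3, CHAC1, CEBPB, PPP1R15A and NUPR1. Bmi1 shRNA replicate 3 was 0.57 below its group mean for DDIT3, and at most 0.11 from it for any other member.

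**Figure D2:**
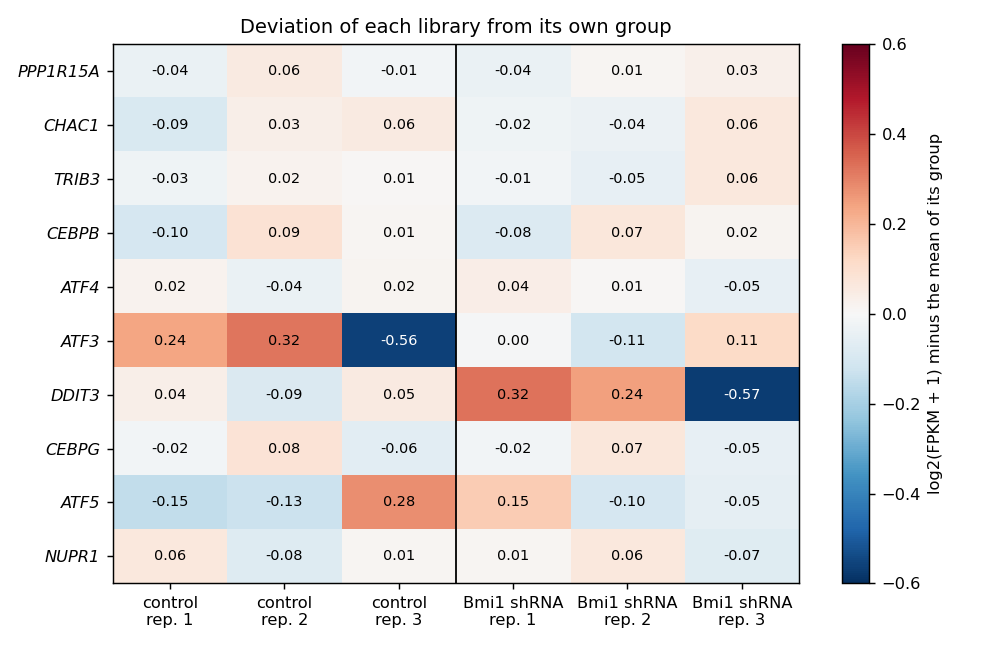
Deviation of each library from the mean of its own group, on the log2(FPKM + 1) scale, for the 10 regulators (rows) in the 3 control and 3 Bmi1 shRNA libraries (columns); colour and printed value give the same number. The deepest colours are ATF3 in control replicate 3 (-0.56) and DDIT3 in Bmi1 shRNA replicate 3 (-0.57), and the 4 genes that fell stay within 0.10 of their group means.

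By level, the control libraries ranked ATF4, TRIB3, CEBPB, PPP1R15A, NUPR1, CHAC1, ATF5, DDIT3, CEBPG and ATF3 from high to low. Neighbours overlapped in FPKM for PPP1R15A with NUPR1 and for ATF5 with DDIT3, and were separate elsewhere. In the Bmi1 shRNA libraries NUPR1 stood above PPP1R15A without overlap. The wide range of DDIT3 there, 12.0 to 23.1 FPKM, reached into that of ATF5 and took in CHAC1 and CEBPG. In GENCODE 29 (GRCh38) ATF5, CEBPG and PPP1R15A lie on chromosome 19, TRIB3 and CEBPB on chromosome 20, and ATF3, DDIT3, CHAC1, NUPR1 and ATF4 on chromosomes 1, 12, 15, 16 and 22.

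The 4 genes that fell had GC-rich transcripts, 58.8% to 66.2% for the longest coding transcript, beside a median of 50.4% over tested rows. Across the table GC content moved with the fold change: rows within 2 percentage points of PPP1R15A (n = 1362) had a median log2 fold change of -0.23, those near TRIB3 -0.22, those near CHAC1 -0.20 and those near CEBPB -0.15. All 4 lay below their medians but above the lowest 5% of such rows, which began at -0.70 for PPP1R15A and -0.66 for CEBPB. ATF4 and ATF5, also GC-rich at 56.7% and 60.0%, lay above the medians of their own neighbours, -0.22 and -0.23. CEBPG, the poorest in GC at 43.9%, lay below its neighbours' 0.16.

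**Figure D3:**
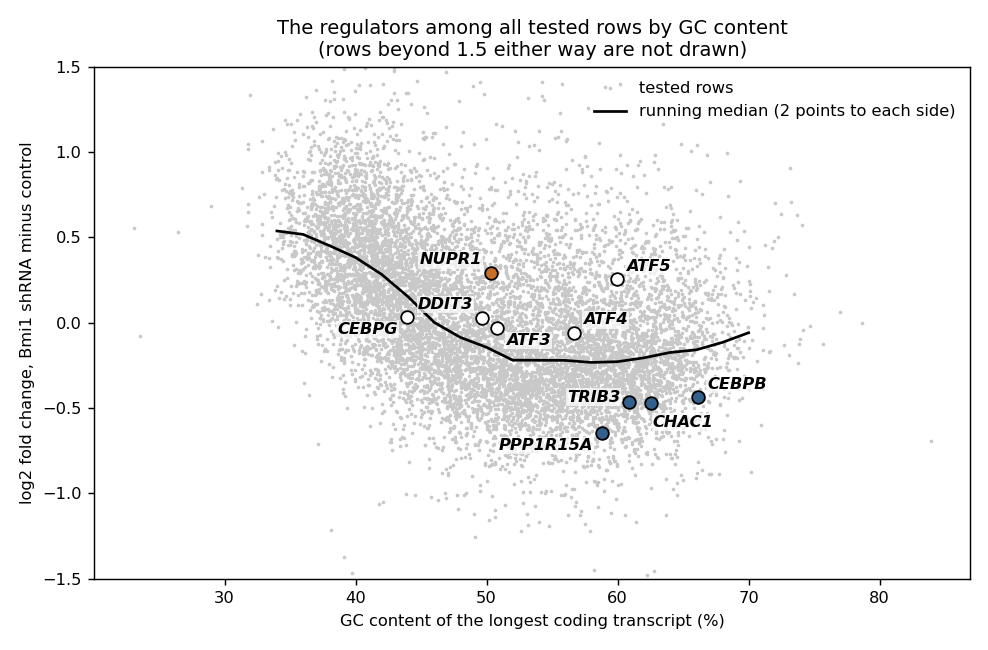
Log2 fold change (vertical axis, Bmi1 shRNA minus control, of log2(FPKM + 1)) against the GC content of the longest coding transcript (horizontal axis, percent) for tested rows in grey and the 10 regulators as large points, blue for lower, orange for higher and white for not called. The running median falls from above 0 at low GC content to about -0.2 above 50%, and PPP1R15A, TRIB3, CHAC1 and CEBPB lie below it while NUPR1, ATF4 and ATF5 lie above it.

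With the trend of each library with GC content and length removed, the same 5 genes were called in the same directions, while 20.7% of 10189 tested rows were called lower and 19.2% higher. PPP1R15A was then at -0.43 (limma, adjusted p = 0.00100), CHAC1 at -0.39 (adjusted p = 0.00190), CEBPB at -0.35 (adjusted p = 0.00331), TRIB3 at -0.23 (adjusted p = 0.00405) and NUPR1 at 0.61 (adjusted p = 0.00306). In this version the 4 falls were smaller than in the deposited FPKM and the rise of NUPR1 was larger. When medians over the transcripts of a gene stood for GC content and length, a version added after the data were seen, ATF4 (0.20, adjusted p = 0.0352) and ATF5 (0.40, adjusted p = 0.0489) were called higher as well. NUPR1, whose longest coding transcript is 5491 bases long, was at 0.36 in that version, and DDIT3 moved from -0.20 to 0.13 between the versions without a call in either.

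**Figure D4:**
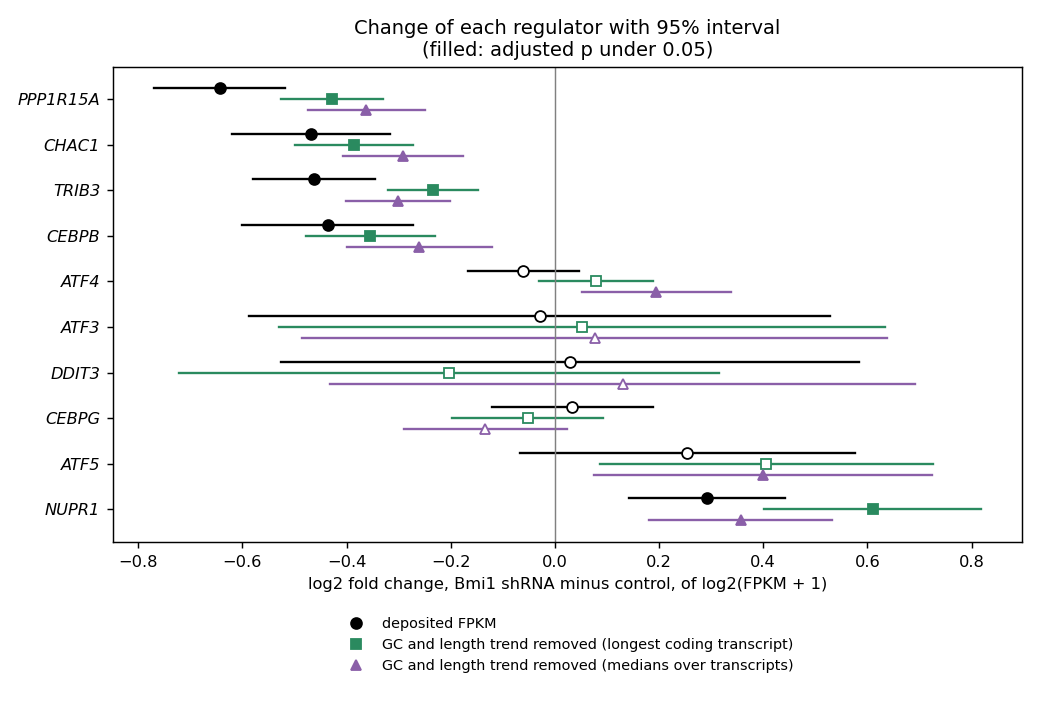
Log2 fold change of each regulator (Bmi1 shRNA minus control, of log2(FPKM + 1)) with its 95% interval from limma, from the deposited FPKM (black circles) and after removal of the trend with GC content and length (green squares, longest coding transcript; purple triangles, medians over transcripts). Filled symbols passed an adjusted p under 0.05: PPP1R15A, CHAC1, TRIB3 and CEBPB stay left of 0 and NUPR1 right of it in all 3 versions, while DDIT3 and ATF3 have the widest intervals.

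Upstream of ATF4, 1 of the 4 eIF2 kinases was called at the mRNA level. EIF2AK3, the PERK kinase of the endoplasmic reticulum, rose from 3.06 ± 0.192 to 3.86 ± 0.105 FPKM (SD, n = 3 each; log2 fold change 0.26; limma, adjusted p = 0.0112). It was still called higher with the GC trend removed (0.24, limma, adjusted p = 0.0117), but was at 0.00 once medians over transcripts were used for GC content. EIF2AK1, the heme-regulated kinase, EIF2AK2, which binds double-stranded RNA, and EIF2AK4, the GCN2 sensor of uncharged tRNA, had log2 fold changes of -0.04, -0.00 and -0.05 and adjusted p from 0.559 to 0.975. With the GC trend removed EIF2AK2 was called lower (-0.28, adjusted p = 0.00820) and EIF2AK4 higher (0.15, adjusted p = 0.0370), and with medians over transcripts both were called lower. GCN1, the ribosome-bound activator of GCN2, fell from 19.0 ± 1.71 to 10.6 ± 1.38 FPKM (limma, adjusted p = 0.00134). Over the whole list of 26 eIF2 kinases, subunits, exchange factors and phosphatases, 13 rose, 5 fell and 8 were not called, with a median log2 fold change of 0.26. Over all tested rows 28.6% were called higher and 28.5% lower. The clearest rises besides PPP1CB were DENR, a reinitiation factor (10.5 ± 0.804 to 23.2 ± 1.27 FPKM), and the eIF2 subunits EIF2S2 (35.1 ± 2.23 to 68.7 ± 3.34 FPKM) and EIF2S1 (5.68 ± 0.164 to 8.64 ± 0.217 FPKM). The 5 that fell, named after their values were seen, were GCN1, PPP1R15B, EIF2B1, EIF2B5 and DELE1. The last 2 were not called with the GC trend removed (limma, adjusted p = 0.131 and 0.582). With medians over transcripts DELE1 was called lower (-0.23, limma, adjusted p = 0.0446) and EIF2B5 was not called (adjusted p = 0.333). EIF2S1 was called higher with the GC trend removed (0.17, limma, adjusted p = 0.0289) but not with medians over transcripts (0.06, adjusted p = 0.345). This list is poor in GC, with a median of 44.0%. With the trend removed it held 9 rises and 7 falls and a median of -0.03, beside 19.2% higher and 20.7% lower over all rows.

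Among 16 tested relatives of the members (other C/EBP, CREB/ATF, tribbles and CHAC genes), 7 rose, 3 fell and 6 were not called (median log2 fold change 0.23). The shares over all tested rows were 28.6% higher and 28.5% lower. CEBPZ, a C/EBP-named nucleolar factor, rose from 3.81 ± 0.241 to 8.67 ± 0.414 FPKM and ATF2, a kinase-regulated partner of JUN, from 1.49 ± 0.148 to 3.59 ± 0.250 FPKM (adjusted p = 0.000251 and 0.000396 by limma; SD, n = 3 each). CREB3L4 rose by 0.36 on the log2 scale. ATF1 rose by 0.50, but with the GC trend removed it was called lower, at -0.19. With medians over transcripts ATF1 was called higher (0.48, limma, adjusted p = 0.00146). The 3 that fell, named after their values were seen, were ATF6B, CREB3L2 and TRIB1. CREB3L2, like TRIB1, was not called with the GC trend removed (-0.02, limma, adjusted p = 0.842). With medians over transcripts CREB3L2 and TRIB1 were called lower (-0.19 and -0.28, adjusted p = 0.0429 and 0.0180 by limma). With the trend removed the counts were 6 higher and 4 lower, with a median of 0.07, beside 19.2% higher and 20.7% lower over all rows.

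Downstream, of 54 tested genes that ATF4 and CHOP are known to raise, in 3 target lists, 31 fell, 13 rose and 10 were not called, beside 28.5% lower and 28.6% higher over all tested rows. Their median log2 fold change was -0.34, against -0.02 over all tested rows. The lists were chosen with earlier results of these data known, so their difference from all tested rows is a description only. With the GC trend removed 27 fell and 10 rose, with a median of -0.18, beside 20.7% lower and 19.2% higher over all rows. In amino acid supply, 14 of 21 tested genes fell and 3 rose (median -0.35). SLC3A2, the heavy chain of several amino acid exchangers, fell from 115 ± 2.53 to 68.7 ± 2.87 FPKM (adjusted p = 0.000280 by limma; SD, n = 3 each). SLC1A4, a neutral amino acid transporter, fell from 20.8 ± 1.17 to 11.3 ± 0.741 FPKM, SLC6A9, a glycine transporter, from 14.8 ± 0.910 to 8.19 ± 0.472 FPKM, and ALDH18A1, an enzyme of proline synthesis, from 49.6 ± 0.681 to 33.5 ± 0.397 FPKM. ASNS, asparagine synthetase and a standard readout of ATF4 activity, fell from 98.8 ± 6.54 to 78.3 ± 4.22 FPKM (log2 fold change -0.33; limma, adjusted p = 0.00745). The 3 that rose, named after their values were seen, were MTHFD2, SLC7A11 and SLC38A2, of mitochondrial folate metabolism, cystine uptake and glutamine uptake. SLC38A2 was not called with the GC trend removed (0.14, adjusted p = 0.0834) and was at -0.06 with medians over transcripts.

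The tRNA charging list was split evenly, with 6 of 14 genes higher, 6 lower and 2 not called (median 0.04). The shares over all tested rows were 28.6% higher and 28.5% lower. EPRS rose from 10.1 ± 0.266 to 19.9 ± 0.542 FPKM, TARS from 16.8 ± 0.561 to 30.0 ± 1.81 FPKM, NARS from 13.4 ± 0.423 to 22.5 ± 1.51 FPKM and IARS from 12.0 ± 0.642 to 18.8 ± 0.584 FPKM (SD, n = 3 each), synthetases that charge glutamate and proline, threonine, asparagine and isoleucine tRNAs. LARS and XPOT, a tRNA exporter, made up the other rises. AARS, MARS, WARS, CARS, YARS and SARS fell, the first from 117 ± 4.89 to 70.2 ± 6.31 FPKM; they were named after their values were seen. With the GC trend removed the list held 6 rises and 7 falls, beside 19.2% higher and 20.7% lower over all rows. SARS, LARS and XPOT kept their calls there. With medians over transcripts SARS, LARS and XPOT were not called, XPOT at -0.09.

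Of 19 tested other targets of ATF4 and CHOP, 11 fell and 4 rose, with a median of -0.42, beside 28.5% lower and 28.6% higher over all tested rows. DDIT4, an mTORC1 inhibitor, fell from 239 ± 12.0 to 136 ± 4.17 FPKM and SESN2, a leucine-sensing stress protein, from 22.4 ± 1.03 to 11.3 ± 0.708 FPKM (adjusted p = 0.000267 and 0.000282 by limma; SD, n = 3 each). TNFRSF10B, the death receptor that CHOP induces, fell from 13.5 ± 0.428 to 8.41 ± 0.475 FPKM. The 4 that rose were KLHL24 (1.22 ± 0.0779 to 2.62 ± 0.116 FPKM) and, named after their values were seen, ERO1A, MAP1LC3B and ATG5. With the GC trend removed 9 fell and 2 rose, with a median of -0.15, beside 20.7% lower and 19.2% higher over all rows. ERO1A and ATG5 were not called there (limma, adjusted p = 0.0570 and 0.0558). With medians over transcripts ATG5 was called higher (0.49, limma, adjusted p = 0.0262) and ERO1A was not called (adjusted p = 0.611). Within the Bmi1 shRNA group TNFRSF10B measured 8.57, 7.87 and 8.78 FPKM, with no low value in replicate 3, where DDIT3 was lowest.

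**Figure D5:**
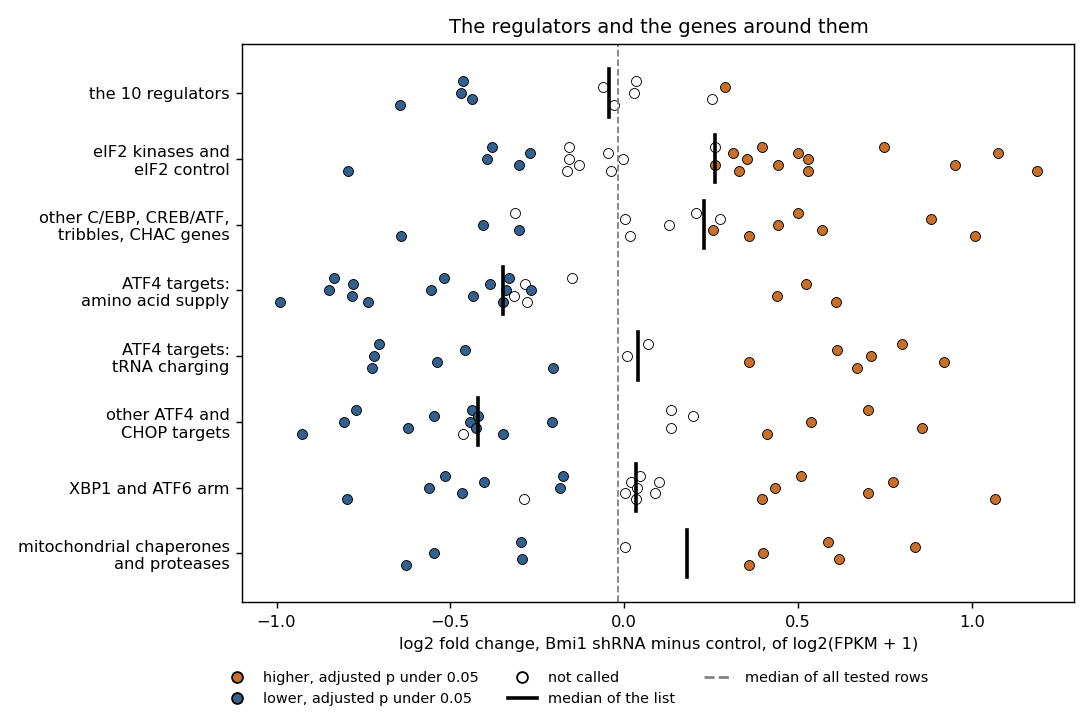
Log2 fold change (horizontal axis, Bmi1 shRNA minus control, of log2(FPKM + 1)) of every tested gene of the regulators and of 7 pathway lists, each point 1 gene, orange for called higher, blue for called lower and white for not called; black bars are list medians and the dashed line is the median of all tested rows. The amino acid supply list (median -0.35) and the list of other ATF4 and CHOP targets (median -0.42) lie mostly left of the line, while the eIF2 list (median 0.26) lies mostly right of it.

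Matches to the composite element TGATGNAA stood before genes of either direction. The letters were present before the starts of 4 of 18 matched amino acid supply genes (ASNS, GOT1, BCAT1 and SLC1A5), 3 of 11 tRNA charging genes (GARS, AARS and IARS) and 2 of 18 other targets (FGF21 and HERPUD1), against 3.89% of the genes with RefSeq windows. Of these, ASNS, GOT1 and AARS fell, IARS rose, SLC1A5, GARS and HERPUD1 were not called, and BCAT1 and FGF21 were under the filter. Among the regulators the element was before CHAC1, which fell, and before ATF3 and CEBPG, which were not called.

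The other arms of the response to unfolded proteins gave no common direction. Of 21 genes of the XBP1 and ATF6 arm, 6 rose and 7 fell (median 0.03), beside 28.6% higher and 28.5% lower over all tested rows. HSP90B1, the endoplasmic reticulum form of HSP90, rose from 32.3 ± 2.17 to 68.8 ± 2.53 FPKM, DNAJB9 from 3.71 ± 0.412 to 7.02 ± 0.0218 FPKM and SEC61B, a translocon subunit, from 119 ± 11.7 to 194 ± 6.95 FPKM (SD, n = 3 each), while HYOU1, a chaperone of the same compartment, fell from 29.4 ± 1.23 to 16.5 ± 1.74 FPKM. HSPA5, the BiP chaperone, was at 131 ± 2.59 and 115 ± 8.20 FPKM, a fall that passed narrowly (log2 fold change -0.19; limma, adjusted p = 0.0441) and did not pass with the GC trend removed (adjusted p = 0.129). XBP1 was not called (0.04, adjusted p = 0.814). Of 10 mitochondrial chaperones and proteases, whose stress ATF5 serves, 5 rose and 4 fell, beside the same shares of 28.6% and 28.5% over all tested rows. The rises were led by HSPD1 (62.2 ± 4.55 to 112 ± 4.73 FPKM) and YME1L1 (6.98 ± 0.433 to 11.0 ± 0.584 FPKM). The falls were led by LONP1 (37.1 ± 1.88 to 23.7 ± 1.64 FPKM) and TRAP1 (56.2 ± 5.89 to 38.0 ± 1.24 FPKM).

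The genes most like ATF4 across the 6 libraries, by Pearson r of log2(FPKM + 1), were ARGLU1 (r = 0.987), CRTC3 (0.972) and CTNND1 (0.969), and those most like PPP1R15A were STIP1, FYN and IGSF8 (each 0.999). All 3 genes most like PPP1R15A fell, by 0.46 to 0.50 on the log2 scale. Of those most like ATF4, ARGLU1 measured 4.77, 4.33 and 4.85 FPKM in control and 4.53, 4.16 and 3.87 FPKM in Bmi1 shRNA libraries, with overlapping groups. CRTC3 measured 3.28, 2.49 and 3.26 against 2.17, 1.91 and 1.13 FPKM, without overlap, and was called lower (log2 fold change -0.57; limma, adjusted p = 0.0260), while CTNND1 was at -0.56 and not called (adjusted p = 0.104). With 6 libraries and 11016 rows such values are a description only.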

How the data were processed

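The members and gene lists were chosen with earlier results of these data known. The values are FPKM that the authors deposited in a single table for all 6 libraries. Bowtie 0.12.2, HISAT2 2.0 and StringTie 1.3.0 and the build mm8, a mouse build, are named in the submitters' processing notes, although the labels give human cells, so the build used is not settled. Columns abbreviated Sc and Sh were read as scrambled and Bmi1 shRNA. The extraction protocol in the labels also mentions adipose material, so library details are uncertain. Read depth is unknown: the commonest ratio between low values of a library and of control replicate 1 held for at most 5.23% of low rows, so whole reads were not recovered. Repeated names (3646 rows) were tested but not named.

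limma 3.58.1 (R 4.3.3) was fitted to log2(FPKM + 1), a pseudocount of 1, over rows averaging at least 1 FPKM, with group as the only term, eBayes with trend and Benjamini-Hochberg adjustment over all 11016 rows. Fold changes on this scale understate changes of low genes. GC content and length came from GENCODE 29 (GRCh38); each library's trend was fitted with natural splines (5 degrees of freedom) and subtracted, which also removes true change that goes with them. The fit was run on simulated data with independent noise and few changed rows. That simulation held no GC trend and no difference between library totals, so it does not test the fit under those conditions. Named genes were the members, BMI1, up to 4 called genes of smallest p per list, relatives and partners set by name, and the 3 rows most like ATF4 and like the member with the largest change. Alternatives covered pseudocount, filter, scaling, variance prior, library weights, replicate block and left-out libraries. No pairing of the samples by replicate number was seen in the values, which cannot settle whether the cultures were paired.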

Additional observations from a re-analysis of the deposited data

How the results depend on the processing

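The calls of PPP1R15A, TRIB3, CHAC1, CEBPB and NUPR1 kept their direction and stayed under an adjusted p of 0.05 in all 19 alternative settings. Over all rows, a filter at a mean of 5 FPKM left 1631 called higher and 1847 lower, since fewer rows were tested. Removing the trend with GC content and length left 1955 of 10189 rows called higher and 2107 lower. Together with the replicate number as a block it left 1574 higher and 1575 lower. In that last setting, of the 54 tested genes of the 3 target lists, 8 were called higher and 24 lower. With the replicate block alone, 2870 rows were called higher and 2788 lower, with 1 member higher and 4 lower. Deviations of same-numbered libraries correlated at 0.00374, -0.0791 and -0.0234, and those of differently numbered libraries at -0.0757 to 0.0998. No pairing by number was seen, but such values cannot settle whether the cultures were paired. Members called higher were 3 with GC medians over transcripts, and 1 to 2 with a library left out. ATF1, called higher in the deposited FPKM, was also called higher with medians over transcripts (0.475, limma, adjusted p = 0.00146). It was -0.194 with the GC trend of the longest coding transcript removed, with or without the block. Other signs reversed too. With that removal, again with or without the block, ATF3 was 0.0522, ATF4 0.0785, DDIT3 -0.204, CEBPG -0.0525, CHAC2 -0.598, EIF2AK1 0.0916 and EIF2AK4 0.155. With medians over transcripts ATF3 was 0.0762, ATF4 0.195, CEBPG -0.134 and CHAC2 -0.314. Scaling to a total gave DDIT3 -0.0607, CEBPG -0.0526 and XBP1 -0.0536; to an upper quartile, ATF3 0.00726, EIF2AK1 0.00342 and EIF2AK2 0.0293; quantile normalization, XBP1 -0.147; and library weights, ATF3 0.0489, EIF2AK2 0.00919 and XBP1 -0.0101. With a library left out, ATF3 ran from -0.310 to 0.133, DDIT3 from -0.133 to 0.312, CEBPG from -7.56e-05 to 0.0751, EIF2AK2 from -0.0327 to 0.0476 and XBP1 from -0.108 to 0.113. The cause of these changes was not tested. Count tests listed for raw counts were not run. With 3 libraries per group and unknown depth, small changes of ATF3, DDIT3 and ATF5 were not detectable.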

Other observations

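Among the amino acid supply genes, named here after their values were seen, 3 genes of serine synthesis and 2 carriers were lower with Bmi1 shRNA. PSAT1, the transaminase of the serine pathway, fell from 292 ± 9.25 to 229 ± 8.76 FPKM (SD, n = 3 each; log2 fold change -0.35, adjusted p = 0.00186, limma) and was at -0.70 with the GC trend removed. PHGDH and PSPH, the enzymes before and after it, fell from 25.2 ± 1.95 to 19.7 ± 1.34 FPKM and from 48.8 ± 5.27 to 37.1 ± 3.71 FPKM, but neither was called with the GC trend removed (limma, adjusted p = 0.439 and 0.0551). SLC7A5, the exchanger of large neutral amino acids that pairs with SLC3A2, fell from 297 ± 19.4 to 165 ± 18.6 FPKM, and SLC7A1, a carrier of cationic amino acids, from 35.0 ± 2.21 to 17.2 ± 2.09 FPKM. Both were still called with the GC trend removed, at -0.50 and -0.59. Other carriers of the list differed: SLC1A5 and SLC43A1 were not called (limma, adjusted p = 0.138 and 0.0742) and SLC7A11 rose by 0.61 on the log2 scale. GDF15, a secreted stress cytokine that ATF4 and CHOP raise, fell from 433 ± 21.0 to 297 ± 18.4 FPKM (limma, adjusted p = 0.000920).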
